A study of Mus musculus with 48 samples.

Results

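ADP at 2 µM, given for 2 h to MLO-Y4 cells, was compared with the same cells without ADP. MLO-Y4 is an osteocyte-like line of mouse origin, and osteocytes are the long-lived cells inside mineralized bone. The comparison covered the 11604 genes with a mean of at least 1 FPKM over the 6 libraries, out of 55335 gene rows. FPKM counts the fragments of a gene per kilobase of its transcript and corrects for the size of the library. A further 15756 genes were above 0 but below that mean, and 27975 were listed at 0 in the 6 libraries. At the threshold, Tex9 averaged 1.0004 FPKM and was in, and Gm16069 averaged 0.99956 FPKM and was out. The ADP 2 µM group and the group with no ADP had 3 libraries each, and both are labelled as wild-type MLO-Y4 of the C57BL/6J background. The study also exposed such cells for 1 h to oligomycin A, which blocks the ATP synthase of mitochondria, or to its vehicle, and gave the conditioned medium (supernatant) of both cultures to further MLO-Y4 cells for 2 h. These 12 libraries are tabulated elsewhere and were normalized separately, so they are set beside the ADP values without a test between tables. The other 30 of the 48 samples were not used here, and those with 1 µM ADP and with receptor knockdown were not analysed here. Nothing in the labels tells whether the replicates came from different cultures, and the p-values therefore refer to the spread among these libraries alone, which may be technical.

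ADP outside cells is a signal. It acts on G protein-coupled nucleotide receptors (the P2ry genes), some of which couple through phospholipase C to calcium release and others of which lower cAMP. Enzymes on the cell surface convert ATP to ADP and on to adenosine, which has receptors of its own. In bone, osteocytes release ATP under load or damage, and nucleotides are among the signals that neighbouring cells read. Early transcriptional responses to such signals usually run through immediate early genes such as Fos and Egr1.

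The cell line label was checked against marker genes. Pdpn, which encodes podoplanin and marks young osteocytes, had 156, 162 and 168 FPKM with ADP and 157, 151 and 157 FPKM without. Phex, an endopeptidase gene of phosphate regulation, had 7.16 to 8.29 FPKM with ADP and 7.04 to 7.97 FPKM without. Markers of mature osteocytes were absent or nearly so: Sost was listed at 0 in all 6 libraries, and Dmp1, Mepe and Fgf23 reached at most 0.017, 0.049 and 0.0241 FPKM. Of 12 macrophage and osteoclast markers 2 were tested, Mmp9 and Ctsk. Mmp9 had 5.90 to 6.31 FPKM with ADP and 6.01 to 6.71 FPKM without. Ctsk had 3.62 to 4.11 FPKM with ADP and 3.61 to 4.49 FPKM without. The 12 markers summed to 11.2 to 13.2 FPKM with ADP and 11.7 to 12.9 FPKM without, while Adgre1, Tyrobp, Acp5, Calcr and Dcstamp were listed at 0. The 6 endothelial markers summed to at most 0.0719 FPKM, and no marker of endothelial, erythroid or adipose cells was tested. Some genes of bone matrix and connective tissue were high: the 12 osteoblast and bone matrix markers summed to 9220 to 9319 FPKM with ADP and 9226 to 9563 FPKM without, mostly from Spp1, the osteopontin gene, while Sp7, Alpl and Bglap were below the filter. The 8 fibroblast markers, 6 of them tested, summed to 331 to 351 FPKM with ADP and 347 to 357 FPKM without.

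One library stood apart. In ADP replicate 1, ribosomal RNA-like and 7S genes took 2.04% of the summed FPKM, against 0.386% to 0.404% in the other ADP libraries and 0.391% to 0.441% without ADP. Rn7s1, a gene of the signal recognition particle RNA, had 2327 FPKM there, against 27.9 and 18.3 FPKM in ADP replicates 2 and 3 and 16.1 to 30.7 FPKM without ADP. Rn7sk, the 7SK RNA gene, had 379 FPKM there and 12.5 to 21.01 FPKM in the other 5 libraries. These RNAs have no poly(A) tail as a rule, and the libraries were made from RNA selected with oligo(dT). The first principal component held 33.4% of the variance and set this library at 23.0, with the other 5 between -7.86 and -1.90. Counts of called genes are therefore given with and without it.

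Few genes differed between cells with and without ADP beyond the spread of 3 libraries a group. A gene was called when its adjusted p was below 0.05, by limma with Benjamini-Hochberg adjustment over all 11604 genes. By this rule 7 genes were called, 0.0603% of those tested, with 6 higher (0.0517%) and 1 lower (0.00862%) under ADP. The higher genes were Slc36a1, Wdr81, Yipf6, Fam122b, Pianp and Gm28048. The median gene had a log2 fold change of 0.043 in size with a 95% interval of 0.14 to either side. At an unadjusted p below 0.05 there were 678 genes (5.84%). No overlap between the libraries of both groups was found for 1230 genes (10.6%), of which 618 (5.33%) were higher and 612 (5.27%) lower with ADP.

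**Figure D1:**
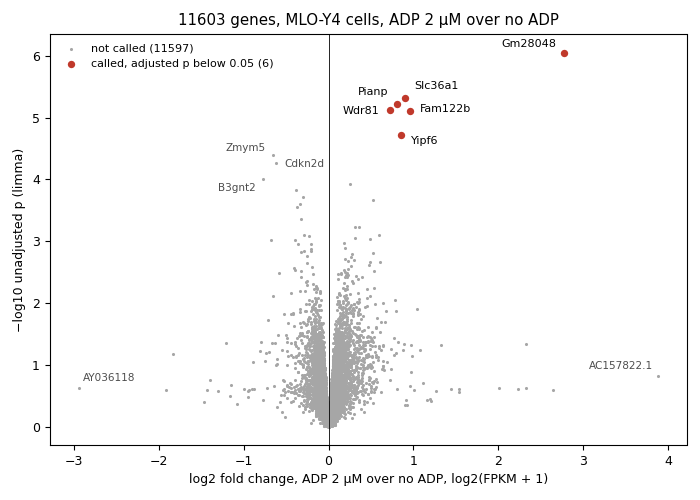
Each point is 1 of 11603 tested genes; the x axis is the log2 fold change of ADP 2 µM over no ADP on the log2(FPKM + 1) scale and the y axis is −log10 of limma's unadjusted p. The 6 genes called higher (red) have the smallest p of the genes shown, by the rule for calling, with Zmym5 next. AY036118 and AC157822.1, at the far left and right, have large fold changes and high p.

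Of the called genes, 3 encode proteins of the lysosome, endosome or Golgi. This grouping was made with the calls known, and the share of such genes among all genes tested was not counted. Slc36a1 (ENSMUSG00000020261, chromosome 11, 55204350 to 55236330, plus strand, GRCm38) encodes a proton-coupled amino acid transporter of lysosomal and plasma membranes. Slc36a1 had 2.53, 2.29 and 2.20 FPKM with ADP, against 0.772, 0.776 and 0.836 FPKM without. The lowest ADP library was thus above the highest library without ADP, and the log2 fold change was 0.90 ± 0.06 (SE; limma adjusted p = 0.0178). In bulk RNA, more cells with a transcript and more transcript per cell cannot be told apart. Among the 25 tested genes of lysosomal amino acid sensing it was the one called, and of 32 tested genes of the lysosome and its proton pump 0 were called, with a median of 0.0060.

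Wdr81 (chromosome 11, 75440944 to 75454717, minus strand) encodes a WD-repeat protein that acts in endosome maturation and in the autophagy of protein aggregates. It had 3.53, 3.40 and 3.20 FPKM with ADP, against 1.74, 1.63 and 1.605 FPKM without, a log2 fold change of 0.72 ± 0.05 (SE; limma adjusted p = 0.0178). Yipf6 (chromosome X, 98936316 to 98949017, plus strand) encodes a membrane protein of the Golgi. It had 2.94, 3.59 and 3.06 FPKM with ADP, against 1.32, 1.40 and 1.24 FPKM without, a log2 fold change of 0.85 ± 0.07 (SE; limma adjusted p = 0.0322). In neither gene did the groups overlap. Among the 25 tested genes of endosome and Golgi membrane traffic, the relatives Yipf2 and Yipf1 had log2 fold changes of 0.25 and 0.15 and were not called (limma adjusted p = 0.842 each). Among 28 autophagy genes Wdr81 was the one called, with Atg3 at 0.12 and Ulk1 at -0.09, and among 16 genes of protein phosphatase 2A Fam122b was.

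Fam122b (chromosome X, 53243415 to 53269805, minus strand) is a relative of Fam122a, whose human protein inhibits protein phosphatase 2A. Fam122b had 4.29, 4.25 and 4.49 FPKM with ADP, against 1.64, 2.03 and 1.61 FPKM without, a log2 fold change of 0.96 ± 0.07 (SE; limma adjusted p = 0.0178). Fam122a itself had 8.94 to 9.30 FPKM with ADP and 7.53 to 8.73 FPKM without (log2 fold change 0.14, limma adjusted p = 0.842). Pianp (chromosome 6, 124996694 to 125003096, plus strand) encodes a membrane protein that binds an inhibitory receptor of myeloid cells. It was the most abundant called gene, at 26.4, 23.3 and 24.0 FPKM with ADP, against 13.7, 12.9 and 14.1 FPKM without, a log2 fold change of 0.81 ± 0.06 (SE; limma adjusted p = 0.0178).

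Each of the 7 called genes kept its direction, and nearly its size, when any one library was left out. Gm28048 kept its call in 5 of the 6 omissions, at a log2 fold change of 2.65 to 2.88. Each of the other called genes kept its call in only 1 or 2. Over the 6 omissions the log2 fold change was 0.86 to 0.93 for Slc36a1, 0.69 to 0.75 for Wdr81, 0.79 to 0.90 for Yipf6, 0.92 to 1.03 for Fam122b and 0.76 to 0.85 for Pianp. Leaving out ADP replicate 1, 2 or 3 gave 40, 3 and 9 called genes, which included 7, 1 and 3 of the 7. Leaving out replicate 1, 2 or 3 without ADP gave 0, 5 and 2 called genes by limma, which included 0, 2 and 1 of them; where 0 were called, 517 had an unadjusted p below 0.05. The size of the log2 fold changes depends on the pseudocount, since most of these genes are low. With 0.1 and with 5 in place of 1, it was 1.45 and 0.34 for Slc36a1, 0.98 and 0.33 for Wdr81, 1.21 and 0.37 for Yipf6, 1.27 and 0.47 for Fam122b, 0.85 and 0.67 for Pianp, and 5.39 and 1.17 for Gm28048. Yipf6 lost its call with 5 (limma adjusted p = 0.0507, and 0.0257 to 0.272 over its alternatives).

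Slc36a1 and Wdr81 share a promoter feature, shown here because it was found in both after several motifs were searched. The other genes called higher moved in the same direction. Promoters (windows of 300 bases around the start, RefSeq on GRCm38.p6) were found for 5 of the 6 genes called higher, not for Gm28048. The palindrome CACGTG, the core E-box that reads the same on both strands, is in capitals. It occurs at 2 places in the Slc36a1 promoter (chr11:55204090-55204389, plus strand) and at 1 in that of Wdr81 (chr11:75454668-75454967, minus strand).
Slc36a1 promoter: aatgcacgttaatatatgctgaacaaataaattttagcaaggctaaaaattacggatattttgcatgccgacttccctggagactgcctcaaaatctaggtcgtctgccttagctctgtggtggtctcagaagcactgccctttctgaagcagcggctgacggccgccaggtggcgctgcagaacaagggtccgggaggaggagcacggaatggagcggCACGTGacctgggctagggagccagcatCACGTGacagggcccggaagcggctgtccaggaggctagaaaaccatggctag
Wdr81 promoter: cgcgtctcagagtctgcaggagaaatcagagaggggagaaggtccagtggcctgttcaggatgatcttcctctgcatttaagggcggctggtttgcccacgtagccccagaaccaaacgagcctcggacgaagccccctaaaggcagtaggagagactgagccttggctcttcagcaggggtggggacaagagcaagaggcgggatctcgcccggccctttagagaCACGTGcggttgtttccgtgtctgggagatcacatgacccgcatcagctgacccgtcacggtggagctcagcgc
Among the 32851 promoters listed, 7.15% hold CACGTG, and among the 27025 genes they belong to, 8.09% have at least 1 such promoter. The promoters of Pianp, Fam122b and Yipf6 do not hold it. Searched on both strands, neither the cAMP response element TGACGTCA nor the AP-1 element TGANTCA nor the amino acid response element TGATGCAA was in the promoters of these 5 genes or of B3gnt2. The shorter core of the cAMP response element, TGACG, was in those of Slc36a1, Wdr81 and B3gnt2, and 23.0% of all genes have a promoter with it. A match is a string of letters in a window and says nothing about binding.

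Gm28048, a predicted protein-coding gene (chromosome 11, 22834744 to 22982090, minus strand), had the highest fold change among called genes, and it is annotated over another gene. Gm28048 had 7.85, 6.09 and 5.37 FPKM with ADP, against 0.0045, 0.0080 and 0.224 FPKM without, a log2 fold change of 2.78 ± 0.14 (SE; limma adjusted p = 0.0102). Its single transcript in GENCODE M21 has 3 exons and 2746 exonic bases, of which 2449 (89.2%) lie in exons of B3gnt2 and 294 (10.7%) in exons of Commd1. B3gnt2, which encodes a glycosyltransferase that extends N-acetyllactosamine chains, had lower values with ADP. It had 3.74, 5.00 and 4.36 FPKM with ADP, against 8.37, 7.90 and 8.09 FPKM without, a log2 fold change of -0.77 ± 0.09 (SE) that was not called (limma adjusted p = 0.114). The sum of the 2 genes was 9.73 to 11.6 FPKM with ADP and 7.91 to 8.38 FPKM without, so the sum differed less than either gene.

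The transcripts of both genes join different upstream exons to the same next exon. The joins are shown because most other bases of Gm28048 are bases of B3gnt2 as well. The last 15 bases of the upstream exon are in lower case and the first 15 of the shared exon, which begins at position 22837195 of chromosome 11, are in capitals (GENCODE M21, GRCm38, minus strand).
Gm28048-201: ggaaaaaatggacagGTATGAGAGATGAGT
B3gnt2-201: acgctgagagcaaagGTATGAGAGATGAGT
B3gnt2-202: gtgtccctagacaagGTATGAGAGATGAGT
B3gnt2-203: cttctttctgcggctGTATGAGAGATGAGT
Reads within the shared exon belong to either gene. The values of both genes are therefore uncertain as measures of separate transcripts, and no source used here tells how such reads were divided in the deposited values.

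These genes also varied among replicates of other MLO-Y4 groups. In the 12 oligomycin A libraries, Slc36a1 was 0.654 to 2.44 FPKM, Wdr81 1.499 to 5.14 FPKM and Fam122b 1.14 to 4.01 FPKM. In the vehicle group Slc36a1 had 2.44, 2.20 and 2.25 FPKM, beside 2.20 to 2.53 FPKM with ADP. Wdr81 had 4.91, 4.71 and 4.68 FPKM in that group, beside 3.20 to 3.53 FPKM with ADP. Fam122b, Yipf6 and Pianp had 1.31 to 2.77, 1.22 to 2.39 and 13.3 to 23.7 FPKM there. Within single groups, Slc36a1 had 0.821, 2.23 and 0.866 FPKM in the vehicle supernatant group, and Wdr81 had 1.87, 3.99 and 4.14 FPKM with oligomycin A. Yipf6 had 2.76, 2.95 and 0.955 FPKM with oligomycin A supernatant, so both of the levels seen in the ADP experiment stood side by side in one group of replicates. On the log2(FPKM + 1) scale, the range within a group was at least as wide as the change with ADP in 2 of the 4 groups for Wdr81, in 1 for Yipf6 and Gm28048, and in 0 for Slc36a1, Pianp and Fam122b. The highest Fam122b value of the 12 was below the lowest of the ADP libraries, 4.25 FPKM.

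Gm28048 was at or below 0.0072 FPKM in 10 of the 12 libraries, but it had 10.7 and 6.69 FPKM in vehicle replicates 2 and 3. In those libraries B3gnt2 had 3.62 and 6.26 FPKM, against 11.1 FPKM in vehicle replicate 1. The pooled SD within these 4 groups, on the log2(FPKM + 1) scale, was 0.31 to 0.95 for the 6 genes called higher, and the median of all tested genes was 0.10. For each of the 6 that SD was in the highest 10% of tested genes. In the 6 ADP libraries the same SD was 0.0482 to 0.21, with a median of 0.068 over all tested genes. Whether a difference in the cells or in how fragments were assigned to transcripts produced these levels was not tested.

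**Figure D2:**
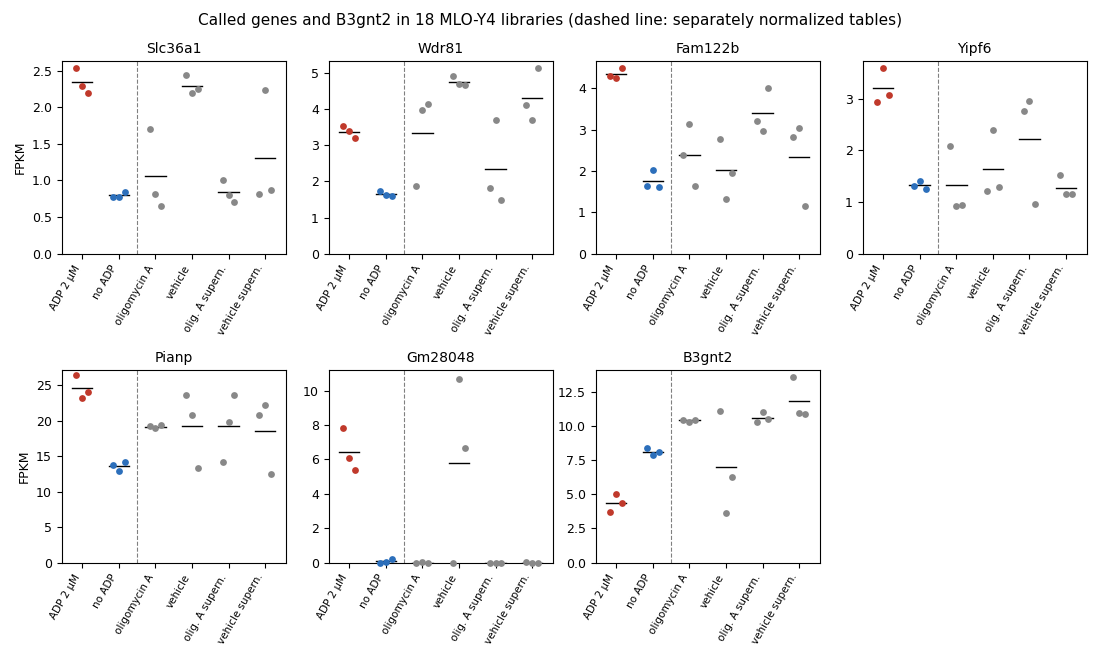
FPKM (y axis) of the 6 genes called higher and of B3gnt2 in each of 18 MLO-Y4 libraries, with 3 points for a group and a bar at their mean. ADP 2 µM (red) and no ADP (blue) do not overlap in any panel, while the grey groups of the separately normalized table to the right of the dashed line spread widely within several panels.

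The 10 genes next by p with an established name had adjusted p from 0.0593 to 0.358 in limma and are given as values. Zmym5, a zinc finger gene, had 4.16 to 4.62 FPKM with ADP and 6.82 to 7.91 FPKM without (log2 fold change -0.66). Cdkn2d, which encodes an inhibitor of the cyclin D-dependent kinases, had 5.11 to 5.38 FPKM with ADP and 7.71 to 9.03 FPKM without (-0.62). Hmga1, a chromatin architecture gene, had 41.3, 40.0 and 38.5 FPKM with ADP, against 49.9, 52.1 and 55.5 FPKM without (-0.39). The ATP synthase subunit genes Atp5j and Atp5j2 had log2 fold changes of -0.34 and -0.33, the mannosyltransferase gene Alg9 one of -0.30 and Mrgbp, of a histone acetyltransferase complex, one of -0.37. The small nucleolar RNA Snord34 and the DNA-binding protein gene Nabp2 stood at 0.36 and 0.31. With B3gnt2, 8 of the 10 had a lower mean with ADP, and the libraries of the groups did not overlap in any of the 10. Picking genes by p favours groups without overlap, so this is in part fixed by the choice. Over all genes tested 10.6% had no overlap, with 618 higher and 612 lower.

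Large fold changes mostly came from single libraries. Of the 30 genes with a log2 fold change of at least 1 in size (0.259% of those tested) 1, Gm28048, was called and 27 had overlapping groups. Without one or another library 27 of the 30 fell below 1 in size. AY036118, annotated as a long noncoding RNA gene, had 0.220 FPKM in ADP replicate 1, the library that stood apart. It had 392.01 and 403 FPKM in ADP replicates 2 and 3 and 414 to 501 FPKM without ADP. CT010467.1 had 366 FPKM in ADP replicate 1, 136 and 137 FPKM in ADP replicates 2 and 3 and 134 to 172 FPKM without ADP. Whether the values of AY036118 and CT010467.1 are linked was not tested. Some protein-coding genes also sat at discrete levels, in examples chosen after their values were seen. Emp1, an epithelial membrane protein gene, had 16.9, 59.9 and 16.3 FPKM with ADP, against 61.0, 59.7 and 60.7 FPKM without. Fam102b had 47.3, 46.8 and 46.1 FPKM with ADP, against 17.8, 47.5 and 11.7 FPKM without. By the rule on size among genes without overlap, Pcdh19, a protocadherin gene, had 23.8 to 30.3 FPKM with ADP and 12.6 to 23.0 FPKM without, Rap1gap2 11.2 to 11.7 and 4.49 to 10.99 FPKM, and Spcs2, of the signal peptidase complex, 9.78 to 22.1 and 22.3 to 23.0 FPKM (adjusted p 0.831 to 0.842 in limma). Snord49b had 5.80 to 7.06 FPKM with ADP and 3.57 to 4.59 FPKM without, a log2 fold change of 0.60 (limma adjusted p = 0.431).

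Receptors through which ADP could act were scarce. Of 8 P2ry genes in the list 1, P2ry2, was tested. P2ry2, whose receptor prefers ATP and UTP, had 1.44, 0.973 and 1.68 FPKM with ADP, against 1.23, 1.10 and 1.02 FPKM without. The groups overlapped, and the log2 fold change of 0.15 had a 95% interval of -0.15 to 0.44 (limma adjusted p = 0.886). P2ry6, the UDP receptor gene, had 0.257, 0.129 and 0.125 FPKM with ADP and 0.252, 0.0592 and 0.160 FPKM without. The classical ADP receptor genes P2ry1 and P2ry13 were listed at 0 in all 6 libraries, and P2ry12 had 0.0291, 0.0143 and 0 FPKM with ADP and was listed at 0 in the 3 without. Among ATP-gated channel genes P2rx4 was tested, at 3.18 to 3.41 FPKM with ADP and 3.14 to 3.56 FPKM without.

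Of the nucleotide cycle, 10 of 15 ectonucleotidase genes and 5 of 10 genes of nucleotide release were tested, and 0 of them were called. Nt5e, which encodes the enzyme that turns AMP into adenosine, had 21.9, 22.03 and 20.98 FPKM with ADP, against 20.7, 21.9 and 23.6 FPKM without. Entpd1, the main ATP- and ADP-cleaving ectonucleotidase gene of many blood and vessel cells, was at or below 0.0168 FPKM. Enpp1, a nucleotide pyrophosphatase gene, had 9.63 to 9.98 FPKM with ADP and 9.56 to 10.2 FPKM without. Of 10 ectonucleotidases tested the median log2 fold change was -0.032, and of 6 genes of adenosine receptors and transport it was -0.046. Gja1, which encodes connexin 43, the main gap junction protein of osteocytes, had 28.4, 29.0 and 27.1 FPKM with ADP, against 29.3, 31.9 and 29.8 FPKM without, a log2 fold change of -0.10 with a 95% interval of -0.21 to 0.00 (limma adjusted p = 0.842).

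Genes downstream of nucleotide receptors were not called. Egr1 had 140, 133 and 141 FPKM with ADP, against 143, 134 and 135 FPKM without, and its log2 fold change of 0.00 had a 95% interval of -0.09 to 0.09. Fos, an AP-1 subunit gene, had 16.4, 11.9 and 12.6 FPKM with ADP, against 12.3, 13.5 and 12.8 FPKM without (0.06, interval -0.21 to 0.34). Nr4a1, an orphan nuclear receptor gene, had 62.0, 54.4 and 53.2 FPKM with ADP, against 53.1, 54.96 and 57.7 FPKM without (0.03, interval -0.13 to 0.19). Each of the 3 had overlapping groups, with the highest value of Fos and Nr4a1 in ADP replicate 1.

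Across the list of immediate early genes, 31 were tested, 0 were called and 1 had an unadjusted p below 0.05 (Jund at -0.12), with a median of -0.027. Their 95% intervals were not all narrow, and reached -0.87 at the lower end (Klf10) and 0.82 at the upper (Fosb). Rcan1, a target of calcineurin and NFAT, had 18.8, 18.6 and 21.1 FPKM with ADP and 21.6, 19.4 and 19.6 FPKM without. Of 17 calcium and NFAT genes 0 were called, and the median was -0.0032; Stim1, the calcium sensor gene of the endoplasmic reticulum, had 1.94, 2.21 and 1.86 FPKM with ADP, against 1.63, 1.57 and 1.599 FPKM without (0.21, unadjusted p = 0.0147 and adjusted p = 0.842 in limma). Of 16 cAMP and CREB genes 0 were called, with a median of -0.0039. Creb1 had 4.01, 1.15 and 3.98 FPKM with ADP, against 1.12, 1.19 and 2.57 FPKM without, which is again a pattern of discrete levels in both groups, and its interval was -0.36 to 1.49.

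Signals from osteocytes to other bone cells were likewise not called. Ptgs2, the inducible cyclooxygenase gene, had 274, 280 and 273 FPKM with ADP, against 283, 282 and 277 FPKM without (log2 fold change -0.03, interval -0.08 to 0.03). Il6, the interleukin 6 gene, had 43.1, 49.9 and 43.7 FPKM with ADP, against 47.7, 51.2 and 46.1 FPKM without (-0.08, interval -0.25 to 0.08). Tnfsf11, the gene of the osteoclast-inducing ligand RANKL, had 19.3, 20.8 and 19.3 FPKM with ADP, against 18.9, 20.6 and 20.3 FPKM without (-0.01, interval -0.12 to 0.11). These groups overlap, and the decoy receptor gene Tnfrsf11b stood below the filter at 0.310 to 0.349 FPKM with ADP and 0.241 to 0.257 FPKM without. Of 21 genes of NF-kB, cytokines and prostaglandins 0 were called and 0 had an unadjusted p below 0.05, with a median of -0.027.

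In all, 43 lists named 789 gene symbols, of which 671 were tested and 4 were called, namely Slc36a1, Wdr81, Fam122b and Yipf6. These 4 were put in their lists with the result known, so their counts carry no weight of their own, and in the other 39 lists 0 genes were called. At an unadjusted p below 0.05 in limma there were 49 of the 671, beside 5.84% of all genes tested. Nuclear genes of oxidative phosphorylation made up 16 of the 49 and cytosolic ribosomal protein genes 9. The 29 lists with at least 10 tested genes had medians between -0.033 and 0.060, beside -0.0012 over all genes tested. The lowest of them belonged to the 19 integrated stress response genes, while cytosolic heat shock chaperones (14 tested) had 0.010 and NRF2 targets (17 tested) 0.030. Atf4, the central transcription factor of the integrated stress response, had 136, 123 and 129 FPKM with ADP, against 151, 161 and 162 FPKM without (log2 fold change -0.28, limma adjusted p = 0.431), and Ddit3, the stress factor CHOP, had 20.3, 19.7 and 19.5 FPKM with ADP, against 19.2, 21.2 and 19.1 FPKM without (0.00, interval -0.11 to 0.11). Mitochondrial motility genes (18 tested) had a median of -0.019, and Rhot1, which encodes the outer membrane adaptor Miro1, had 6.91, 6.87 and 6.56 FPKM with ADP, against 6.84, 7.14 and 6.68 FPKM without. Among 17 genes of mitochondrial fusion and fission, Park7 had 30.7, 33.2 and 33.4 FPKM with ADP, against 37.4, 37.3 and 38.01 FPKM without (-0.21, limma adjusted p = 0.498).

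**Figure D3:**
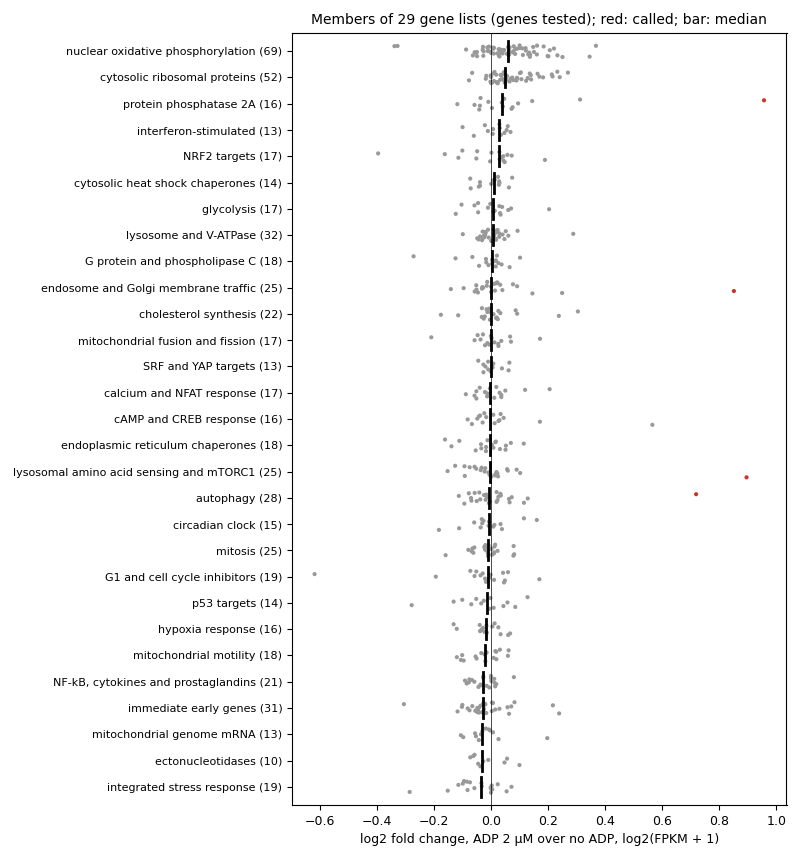
Log2 fold change (x axis, ADP 2 µM over no ADP, log2(FPKM + 1) scale) of the tested members of the 29 lists with at least 10 tested genes (rows); grey points are genes not called, red points the 4 called genes, and black bars the list medians. The medians lie between -0.033 and 0.060.

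The highest medians belonged to genes of oxidative phosphorylation and of the ribosome. Of 69 nuclear genes of oxidative phosphorylation 52 lay above 0 and 17 below, and their median log2 fold change was 0.060. Of all 11604 genes tested 5697 lay above 0 and 5907 below. Without overlap of the groups, 15 of the 69 were higher and 3 lower, beside 5.33% and 5.27% of all genes tested, and 0 were called. The members with the smallest p, Atp5j and Atp5j2, were lower without overlap, at -0.34 and -0.33 (limma adjusted p = 0.191 and 0.296). The next by p was higher: Ndufa13, a subunit gene of the first respiratory complex, had 31.2, 31.2 and 34.1 FPKM with ADP, against 28.1, 26.2 and 27.3 FPKM without (0.23, limma adjusted p = 0.584). Ndufa3, another subunit gene of that complex named as a further example, had 16.3, 19.6 and 21.3 FPKM with ADP, against 14.9, 13.97 and 15.3 FPKM without. Of 52 cytosolic ribosomal protein genes 45 were positive, with a median of 0.050. Of these 52, 8 were higher and 1 lower without overlap, beside the same 5.33% and 5.27% of all genes tested. Rps21 had 88.7, 101 and 103 FPKM with ADP, against 75.9, 78.3 and 88.7 FPKM without (0.27, limma adjusted p = 0.842). The 13 mRNA genes of the mitochondrial genome had a median of -0.030, with mt-Nd3 at 0.20 and mt-Nd5 at -0.11, and 0 were called.

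These small differences stood mainly in ADP replicates 2 and 3. Set against the mean of the 3 libraries without ADP, the median of the ribosomal protein genes was 0.019, 0.063 and 0.096 in ADP replicates 1, 2 and 3, and -0.021, -0.020 and 0.037 in the libraries without ADP. That of the oxidative phosphorylation genes was -0.016, 0.052 and 0.11 in the ADP libraries, and -0.021, -0.0029 and 0.035 in those without. Whether transcript length has a part in the values of these 2 lists was not tested. Over all genes, in length classes chosen after the values were seen, protein-coding genes with a longest transcript of up to 500 bases (35 genes) had a median log2 fold change of 0.12, those of 500 to 1000 bases (382 genes) 0.047, those of 1000 to 1500 bases (678 genes) 0.011 and those over 6000 bases (1453 genes) -0.013. In the shortest class the median was -0.017, 0.14 and 0.18 in ADP replicates 1, 2 and 3, and -0.014, -0.022 and 0.047 without ADP, so ADP replicate 1 lay among the libraries without ADP.

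Processed pseudogenes, the intronless copies of other genes' mRNA, had more members with higher than with lower values under ADP. Of 755 tested, 111 (14.7%) were higher and 17 (2.25%) lower with ADP without overlap of the groups, beside 5.33% and 5.27% of all genes tested, and 0 were called. Their median log2 fold change was 0.098, against -0.0036 for 9967 protein-coding genes, and the 83 named after a ribosomal protein gene had a median of 0.17. By library the median was 0.0092, 0.12 and 0.15 in ADP replicates 1, 2 and 3, and 0.0015, -0.016 and 0.020 without ADP. When ADP replicate 1 was left out, 40 of 11615 genes were called. Of these 40, 25 were processed pseudogenes, a class of 755 among the 11604 genes tested with all 6 libraries. The median of the class was then 0.14. Such copies share reads with their parent genes, so their values are uncertain. Whether length, RNA quality or library preparation has a part in this was not tested.

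**Figure D4:**
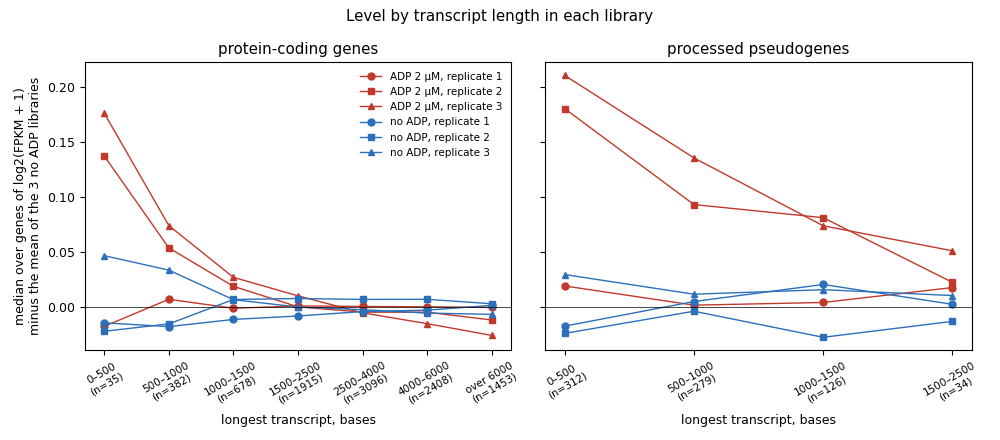
Median over genes of log2(FPKM + 1) minus the mean of the 3 no ADP libraries (y axis), by length of the longest transcript (x axis, bases; n is the number of genes), for protein-coding genes (left) and processed pseudogenes (right) in each ADP 2 µM (red) and no ADP (blue) library. The 2 upper lines at short lengths are ADP replicates 2 and 3, while ADP replicate 1 runs with the libraries without ADP.

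Genes called in the supernatant experiment, which also ran for 2 h in MLO-Y4 cells, mostly had values near 0 with ADP. Medium from oligomycin A-treated cells, against medium from vehicle-treated cells, gave 46 called genes of 11902 tested (0.386%) by limma, 33 higher and 13 lower. With ADP, 32 of the 33 higher genes and all 13 lower genes were tested and 0 were called, with 2 and 1 at an unadjusted p below 0.05. The 32 had a median log2 fold change of -0.014 with ADP, between -0.15 and 0.24, and the 13 one of -0.024, between -0.30 and 0.50, the highest being the pseudogene Rps23-ps2. These genes were chosen by their change with the supernatant, so a larger value there is in part fixed by the choice. Chac1, a glutathione-degrading enzyme gene, had a log2 fold change of -0.15 with ADP and 1.38 with the supernatant. Ddit3 had 0.00 with ADP and 1.18 with the supernatant, and Gem, a small GTPase gene, 0.00 and 0.87. Lower with the supernatant were mt-Tl1, a mitochondrial leucine tRNA gene, at -0.05 with ADP and -1.15 with the supernatant, and Snai1, a transcription factor gene of the Snail family, at 0.03 and -0.88. The difference between the experiments was not tested, since their tables were normalized separately. In a fit of only the 6 recipient libraries the supernatant comparison gave 7 called genes, 2 higher and 5 lower, so the excess of higher genes was not seen there.

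**Figure D5:**
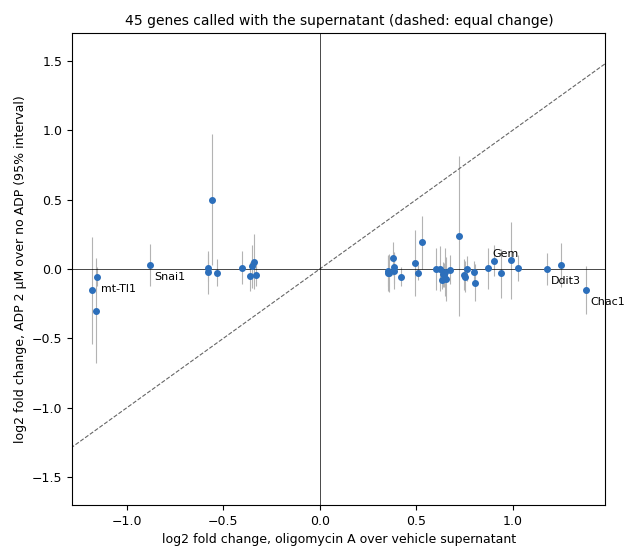
Each point is 1 of the 45 genes called with oligomycin A supernatant over vehicle supernatant and tested with ADP; the x axis is the log2 fold change there and the y axis that of ADP 2 µM over no ADP with its 95% interval. Most points lie along the horizontal zero line; the genes were chosen by their value on the x axis, and the dashed line marks equal change.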

How the data were processed

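Libraries were made from oligo(dT)-selected RNA, per the labels' protocols. The authors deposited FPKM values of 55335 gene rows for these 6 libraries. No source used here names the tool that made them or any use of strand. HTSeq and mm10 are listed, without a role, in the submitters' processing notes. Gene positions, types and transcripts came from GENCODE M21 (GRCm38), which held 55154 of the gene IDs. FPKM are not counts. For single-transcript genes, small values fell near steps worth 24.5 to 25.6 M units in the ADP libraries and 21.4 to 24.2 M in those without ADP, or nearly double that on a finer step. Within 0.1 of a step lay only 43.2% to 48.2% of them, so whole reads could not be recovered, a count test was not made, and how depth limits low genes is known only roughly.

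The test was limma (version 3.58.1, R 4.3.3) with a trended variance prior on log2(FPKM + 1) of the 6 libraries, checked on simulated data, with Benjamini-Hochberg adjustment over all 11604 genes and a threshold of 0.05. Changes of low genes come out too small on this scale. With 3 libraries a group an exact permutation test of 1 gene cannot go below p = 0.1, so none is given. The supernatant genes came from a fit of 12 libraries. No 2 libraries shared more than 0.0254% of their values. Named genes were all called genes and the 10 next by p with an established name. Also named were the 10 largest changes without overlap at 5 FPKM or more in the higher group. A fixed set was named too, among them purinergic, osteocyte, early response and stress genes and the called gene Slc36a1. Of each list, called members or up to 3 by p were named. A few others are named as relatives or markers, or where the text says so. The gene called lower is not reported here. The members and lists were chosen with earlier results of these data known. As alternatives, other pseudocounts, filters, scalings and priors, a replicate block and fits without single libraries were run.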

Additional observations from a re-analysis of the deposited data

How the results depend on the processing

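The 7 called genes, 6 higher and 1 lower, stayed called with a pseudocount of 0.1, with median-of-ratios scaling, with rescaling without ribosomal RNA-like and 7S genes or without mitochondrial genes, and with a variance prior without trend or a robust one. With a pseudocount of 5 there were 6, and with quantile normalization 8, among them the 7. With no filter on low values 0 of 27360 genes were called by limma, with 1379 at an unadjusted p below 0.05, and so 0 of the 7 and 0 list members. When a mean of 5 FPKM was required, 1 gene was called, Pianp, 1 of the 7. Slc36a1, Wdr81, Yipf6, Fam122b and Gm28048 fell below that mean and were not tested, so they could not be called. The 4 list members called in the main fit are among them, and 0 other list members were called. Leaving out 1 library at a time gave 0 to 40 called genes, 0 to 7 of the 7 and 0 to 4 list members; the 0 came without replicate 1 of the cells with no ADP. With the replicate number as a block, 0 genes were called by limma, with 690 at an unadjusted p below 0.05, and so 0 of the 7 and 0 list members. Over all tested genes, the correlations of the deviations from the group means were 0.038, -0.0061 and 0.020 for replicates of the same number. Correlations over all genes cannot tell whether the samples were paired or shared a culture, and the labels give only the shared number. The supernatant comparison gave 46 called genes (33 higher and 13 lower). It gave 7 (2 higher and 5 lower) in a fit of only the 6 recipient libraries and 28 (21 higher and 7 lower) with a replicate block. In no alternative did a called gene change direction. Apart from the genes removed by the filter at 5 FPKM, the cause of the lost calls was not tested. Medians of the oxidative phosphorylation, ribosomal protein and processed pseudogene groups stayed positive under the 4 other scalings and without ADP replicate 1 (0.037 to 0.084, 0.026 to 0.074 and 0.081 to 0.14), settings chosen for this after the data were seen, while that of mitochondrial mRNA genes was 0.020 without ADP replicate 1. Depth, known only roughly, limits genes near 1 FPKM, where most called genes lie.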
